A study of Mus musculus with 12 samples.

Results

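The 34 genes described here encode the core machinery of autophagy and 3 of its cargo receptors. They were taken by gene name from the deposited count table and are 34 of its 55487 genes. These genes and the further lists were chosen with earlier results of these data known. Their shares beside those of all genes are therefore descriptions, not separate support. All 34 had enough counts to be tested, among 16808 genes tested in all. The genes were followed in Min6, a mouse insulinoma line used as a model of the pancreatic beta cell, over 12 mRNA sequencing libraries in 4 groups of 3. The FoxOi_Loperamide group received 1 µM AS1842856, an inhibitor of the transcription factor FoxO1 (FoxOi), together with 5 µM loperamide, an agonist of opioid receptors. The FoxOi group received 1 µM AS1842856 alone and the Loperamide group 5 µM loperamide alone. The DMSO group received the solvent, and all groups were treated for 48 h. All libraries come from 1 cell line, and no label tells if replicates were grown as separate cultures. The p-values therefore measure only the spread between these libraries, which may be technical.

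Autophagy delivers parts of the cytoplasm to the lysosome. The ULK1 kinase complex starts the process, a class III PI3-kinase marks the membrane with a lipid that WIPI proteins bind, ATG9 and ATG2 supply membrane, and a conjugation system attaches ATG8 proteins (the LC3 and GABARAP families) to it. Cargo receptors such as p62 link ubiquitinated cargo to ATG8 proteins, and tethers then bring the closed vesicle to the lysosome. In muscle and liver of mice FoxO factors are known to act on several of these genes, and the MiT/TFE factors do so in human cells. In beta cells autophagy is known to be needed for normal islet structure and insulin secretion.

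Depth ran from 10640485 to 19499216 counts per library, and the counts of a single autophagy gene over the 12 libraries from 1806 (Atg10) to 244382 (Sqstm1). The 7 beta cell markers Ins1, Ins2, Iapp, Pdx1, Nkx6-1, Mafa and Slc30a8 were all detected, and summed to 25368 to 29790 CPM (counts scaled to a common library size) in FoxOi_Loperamide, 32994 to 37666 in FoxOi, 60769 to 61410 in Loperamide and 59378 to 82935 in DMSO. In bulk libraries fewer cells of a type and less RNA per cell cannot be told apart. The 6 macrophage and leukocyte markers summed to 7.31 to 7.67 CPM in FoxOi_Loperamide, 21.6 to 22.9 in FoxOi, 4.26 to 4.67 in Loperamide and 4.55 to 6.07 in DMSO. In FoxOi most of that was Cd68, which lysosomes of other cells also carry. Cd68 had 17.8 ± 0.169 CPM in FoxOi and 2.08 ± 0.596 CPM in DMSO (SD, n = 3 each). Ptprc had 2 counts over the 3 FoxOi libraries and 1 over the 3 DMSO libraries. Adgre1 had 0 counts in DMSO and in Loperamide but not in the groups with FoxOi. Of the 6 markers 3 were tested, and with FoxOi all 3 lay above their DMSO level (median log2 fold change 0.96). Called as higher was 1 of them (33.3%, against 40.9% of all genes). The mitochondrial share of counts was 2.38 to 3.30% in FoxOi_Loperamide, 1.77 to 2.25% in FoxOi, 1.89 to 2.80% in Loperamide and 1.40 to 1.94% in DMSO. The part of these shifts in the results for autophagy genes was not tested.

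On the FPKM scale, which corrects for gene length, the members spanned a wide range of levels. In DMSO the level was highest for Gabarap, an ATG8 protein, at 254 ± 32.9 FPKM, and for Sqstm1, which encodes p62, at 250.4 ± 35.7 FPKM (SD, n = 3), and these neighbours in the order did not differ beyond their spread. Wipi1 followed at 78.8 ± 11.6 FPKM and Nbr1 at 51.1 ± 5.68 FPKM. The lowest were Atg7 at 4.13 ± 0.479 FPKM and Atg4c at 3.91 ± 0.699 FPKM, again within their spread of each other, and the median of the 34 members in DMSO was 10.55 FPKM. In FoxOi_Loperamide, FoxOi and Loperamide, Sqstm1 had the highest mean level of the 34, in Loperamide within the spread of Gabarap (289 ± 47.2 and 251 ± 12.4 FPKM).

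**Figure D1:**
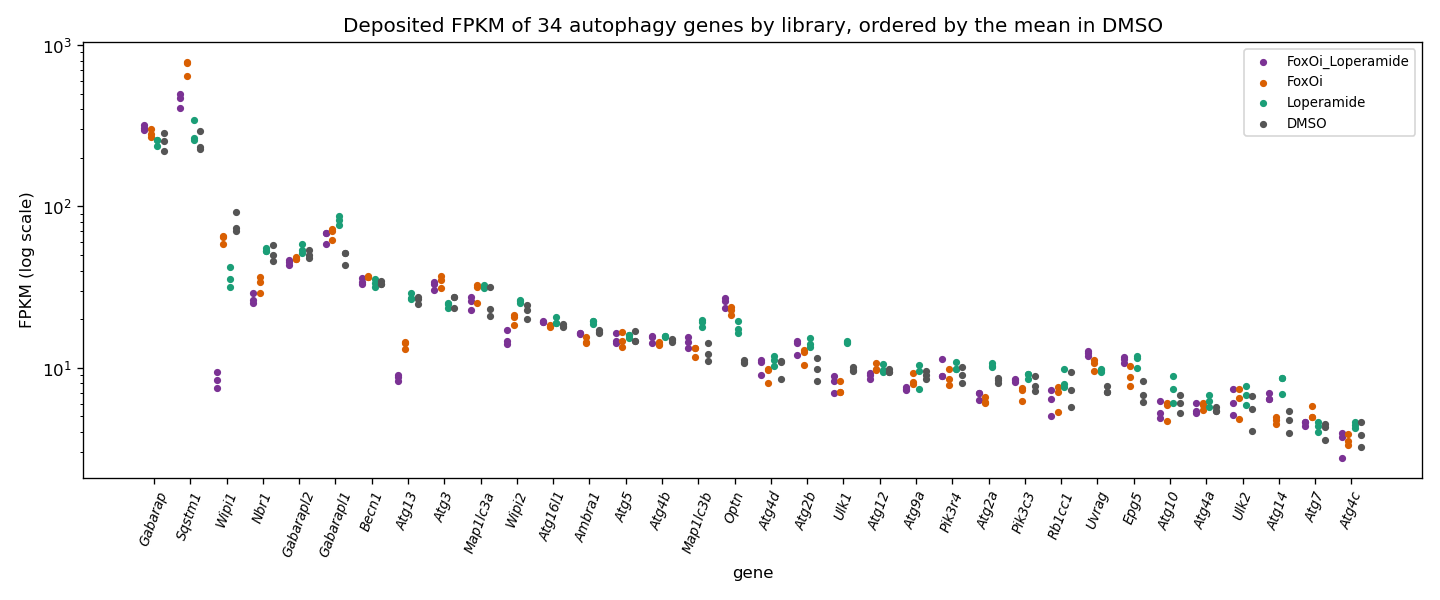
Deposited FPKM (log scale) of the 34 autophagy genes in each of the 12 libraries, 1 point per library and 1 colour per group, with genes ordered by their mean in DMSO. Sqstm1 stands at 734 FPKM on average in FoxOi against 250.4 FPKM in DMSO, and Wipi1 at 8.43 FPKM in FoxOi_Loperamide against 78.8 FPKM in DMSO.

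Promoters are printed for the members on which the results turn: Sqstm1 and Optn, which rose most with FoxOi, Wipi1 and Atg13, which fell most with both compounds, and Atg14 and Atg3, which are 2 of the 4 members with the E-box core described after them. Each runs from 250 bases before to 50 bases after the RefSeq transcription start on build GRCm38.p6, written 5′ to 3′ on the gene's strand. The windows are chr11:50210771-50211070, minus strand (Sqstm1), chr2:5064068-5064367, minus strand (Optn), chr11:109611340-109611639, minus strand (Wipi1), chr2:91710543-91710842, minus strand (Atg13), chr14:47568385-47568684, minus strand (Atg14) and chr16:45158579-45158878, plus strand (Atg3). Capitals mark a match to one of the motifs searched.
Sqstm1: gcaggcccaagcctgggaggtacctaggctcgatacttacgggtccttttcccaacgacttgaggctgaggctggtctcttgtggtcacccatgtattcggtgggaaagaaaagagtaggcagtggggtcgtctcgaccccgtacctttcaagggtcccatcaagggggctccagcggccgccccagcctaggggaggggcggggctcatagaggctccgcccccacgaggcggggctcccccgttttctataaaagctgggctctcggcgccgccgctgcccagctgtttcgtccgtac
Optn: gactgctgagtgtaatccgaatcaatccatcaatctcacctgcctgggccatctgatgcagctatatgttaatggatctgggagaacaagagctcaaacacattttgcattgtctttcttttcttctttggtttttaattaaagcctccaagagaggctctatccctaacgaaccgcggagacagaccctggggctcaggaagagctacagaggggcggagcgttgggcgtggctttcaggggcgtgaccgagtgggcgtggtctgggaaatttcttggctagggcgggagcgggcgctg
Wipi1: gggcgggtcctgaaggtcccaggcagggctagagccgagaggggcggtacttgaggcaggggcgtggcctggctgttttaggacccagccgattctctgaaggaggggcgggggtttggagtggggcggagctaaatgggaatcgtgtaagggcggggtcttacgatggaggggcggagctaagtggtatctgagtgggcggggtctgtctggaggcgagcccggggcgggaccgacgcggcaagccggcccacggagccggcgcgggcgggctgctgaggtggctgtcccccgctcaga
Atg13: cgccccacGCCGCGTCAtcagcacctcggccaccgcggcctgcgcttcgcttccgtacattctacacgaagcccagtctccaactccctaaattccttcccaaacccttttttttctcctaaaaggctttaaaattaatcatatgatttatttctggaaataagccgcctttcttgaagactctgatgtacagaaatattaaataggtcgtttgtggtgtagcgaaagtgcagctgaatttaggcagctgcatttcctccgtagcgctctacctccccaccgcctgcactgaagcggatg
Atg14: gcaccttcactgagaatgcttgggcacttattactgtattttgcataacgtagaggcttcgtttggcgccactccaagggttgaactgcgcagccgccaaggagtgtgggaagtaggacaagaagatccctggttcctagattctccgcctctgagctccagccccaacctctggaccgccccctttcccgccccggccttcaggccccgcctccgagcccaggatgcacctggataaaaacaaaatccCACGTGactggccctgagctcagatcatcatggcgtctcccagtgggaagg
Atg3: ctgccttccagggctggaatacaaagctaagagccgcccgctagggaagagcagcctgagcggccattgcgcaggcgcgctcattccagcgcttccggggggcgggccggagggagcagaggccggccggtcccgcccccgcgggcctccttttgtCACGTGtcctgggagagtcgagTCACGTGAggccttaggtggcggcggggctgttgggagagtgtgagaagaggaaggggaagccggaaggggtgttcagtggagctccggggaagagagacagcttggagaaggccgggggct

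Of the 34 members, 27 matched RefSeq promoters, with 30 windows in all. Rb1cc1, Becn1, Pik3c3, Atg12, Atg16l1, Map1lc3a and Epg5 were not matched. Both strands were searched for CACGTG, the E-box core to which MiT/TFE factors bind, for TCACGTGA, a longer form that contains it, for GTAAACA, a FoxO motif, for TGATGCAA, a motif of CEBP and ATF factors, and for TGACNNNGC, the core of the antioxidant response element. CACGTG was found in Atg14, Atg3, Atg5 and Atg7, or 4 of 30 windows, against 7.15% of all 32851 promoters. The Atg7 window (chr6:114670846-114671145) lies inside the gene, whose annotated start is at 114643097. That of Atg14 also lies inside its gene, which starts at 47570649 on the minus strand. For these genes the RefSeq start is thus not the annotated gene start. In Atg3 it occurs at 2 places, 1 of them within the TCACGTGA that 0.974% of all promoters hold. TGACNNNGC was found in Atg13 (as its complement), Map1lc3b and Ulk2, against 12.4% of all promoters. GTAAACA and TGATGCAA were found in 0 of 30 windows, against 3.65% and 0.895% of all promoters. A match describes letters only, and no match says only that these letters are not in this window.

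With both compounds, 9 of the 34 genes were higher than in DMSO and 6 were lower, which is 44.1% of the members against 45.5% of all genes tested. With FoxOi alone 7 were higher and 4 lower than in DMSO (32.4% of the members, 40.9% of all genes), and with loperamide alone 10 were higher and 1 lower (32.4% of the members, 31.9% of all genes). The shares of called members were thus near or below those of all genes. Among all genes tested, 22.3% were higher and 23.2% lower with both compounds, 20.7% higher and 20.3% lower with FoxOi, and 16.1% higher and 15.8% lower with loperamide. The median log2 fold change of the 34 against DMSO was 0.03 with both compounds (all genes 0.01), -0.01 with FoxOi (all genes 0.01) and 0.19 with loperamide (all genes 0.02). With loperamide 31 of the 34 lay above 0, but only 10 were called as higher and 23 were not called. The share of all genes above 0 is not given here. Members called and changed at least 1.5-fold numbered 7 with both compounds, 4 with FoxOi and 6 with loperamide, while 27.3%, 23.2% and 16% of all genes were. These comparisons share the DMSO libraries.

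Calls were made at an adjusted p under 0.05 by edgeR's quasi-likelihood test with Benjamini-Hochberg adjustment over all genes tested. The replicate numbers pair the libraries, and with the number as a block the counts were 10 higher and 9 lower with both compounds, 12 higher and 7 lower with FoxOi, and 17 higher and 1 lower with loperamide. The block raised the share called among all genes as well: 55.9% of the members and 59% of all genes were called with both compounds, 55.9% and 56.1% with FoxOi, and 52.9% and 48.7% with loperamide. Among the members it added Map1lc3b as higher and Rb1cc1, Atg9a and Gabarapl2 as lower with both compounds. With FoxOi it added Ulk2, Becn1, Atg2b, Map1lc3a and Gabarap as higher and Ambra1, Wipi1 and Wipi2 as lower, and with loperamide Ulk2, Pik3c3, Pik3r4, Wipi2, Atg10, Map1lc3a and Sqstm1 as higher. With libraries scaled to total counts the median log2 fold change of all genes moved to 0.17 with both compounds, 0.11 with FoxOi and 0.12 with loperamide. The members split 14 higher to 4 lower, 11 to 4 and 14 to 1 in the same order. These are 52.9%, 44.1% and 44.1% of the members, against 49.8%, 43% and 34.3% of all genes. Of all called genes 66.3%, 63.2% and 66.1% were then higher. Within each of the 3 replicate numbers, every member called in a pairwise comparison had the sign of its call. These signs come from the libraries that made the calls, so they are no separate support. Ulk2 and Rb1cc1, not called with FoxOi without the block, also kept their sign in all 3.

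**Figure D2:**
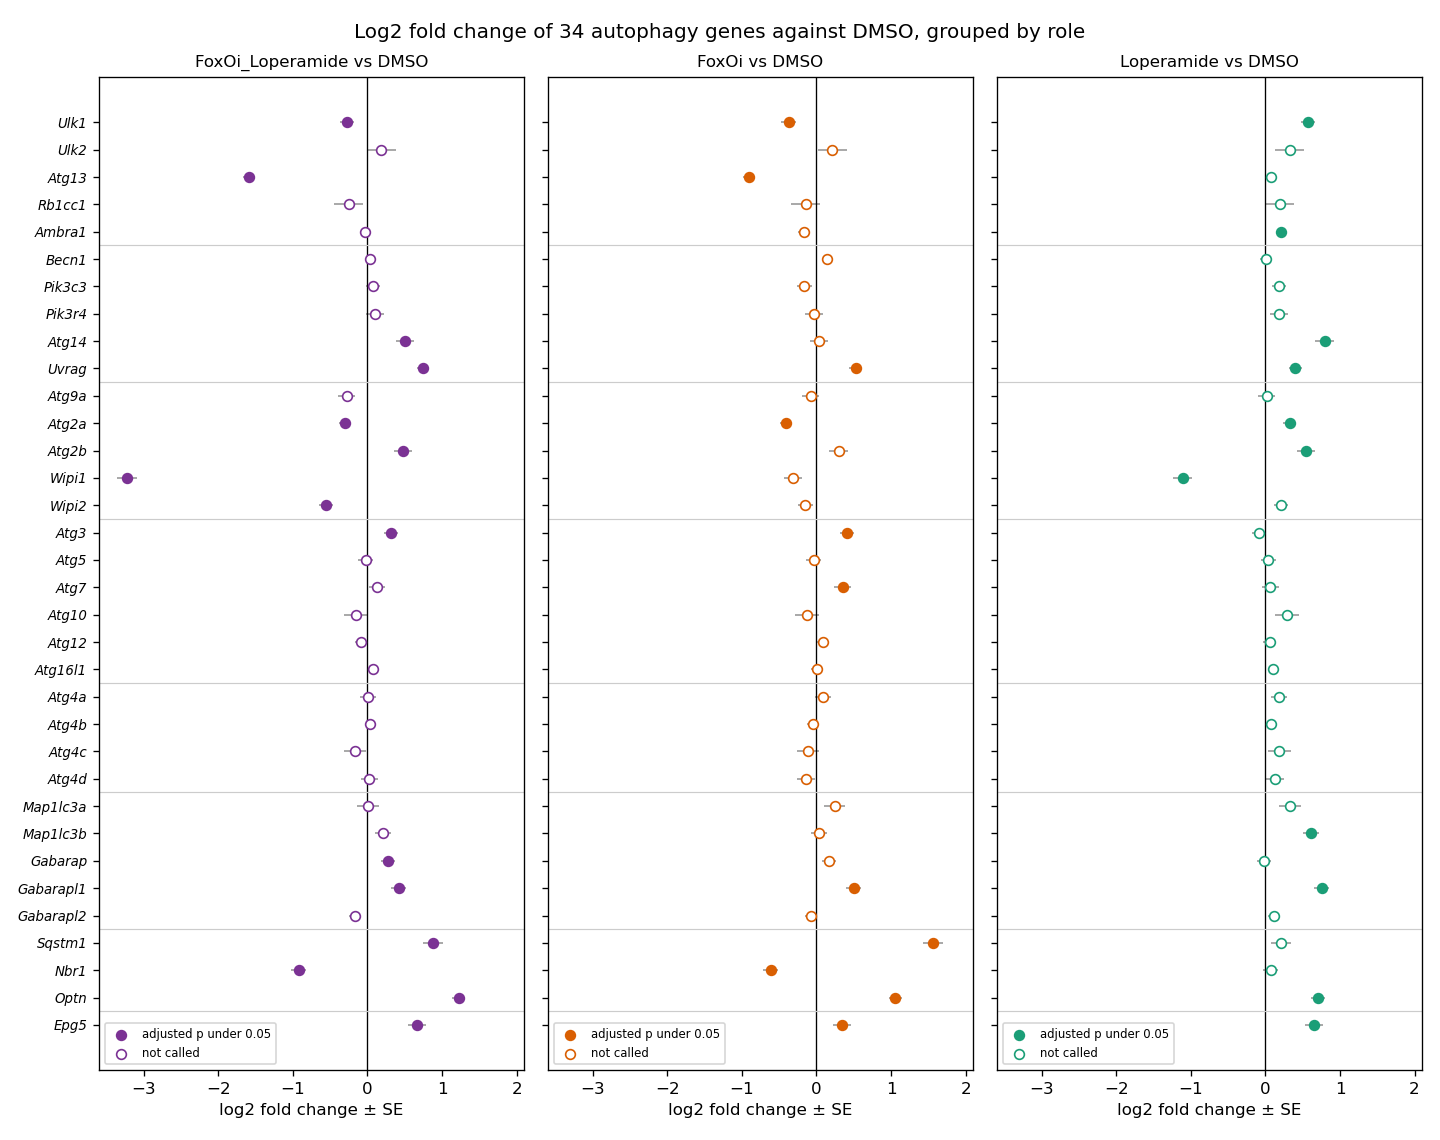
Log2 fold change against DMSO (points) with its standard error (lines) for the 34 autophagy genes, grouped by role, in FoxOi_Loperamide, FoxOi and Loperamide, with filled points where the adjusted p is under 0.05. Wipi1 at -3.22 and Atg13 at -1.59 in FoxOi_Loperamide and Sqstm1 at 1.56 in FoxOi lie farthest from 0. In Loperamide 31 of 34 points lie above 0, of which 10 are filled.

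Of the 3 cargo receptors, Sqstm1 and Optn were higher and Nbr1 was lower with FoxOi, alone and with loperamide. Calls came to 100% of the 3 with both compounds, 100% with FoxOi and 33.3% with loperamide. Of all genes 45.5%, 40.9% and 31.9% were called in that order. Sqstm1 encodes p62, which carries ubiquitinated proteins to the autophagosome (ENSMUSG00000015837, build GRCm38, chromosome 11, 50199366 to 50210827). It had 1404, 1165 and 1344 CPM in FoxOi_Loperamide, 2235, 2216 and 1847 CPM in FoxOi, 978, 729 and 761 CPM in Loperamide, and 836, 654 and 642 CPM in DMSO. All FoxOi libraries were above all FoxOi_Loperamide libraries, these in turn were above the rest, and Loperamide and DMSO overlapped. Sqstm1 rose with FoxOi by 1.56 ± 0.13 on the log2 scale (SE, adjusted p = 4.65e-07) and with both compounds by 0.88 ± 0.13 (adjusted p = 8.59e-05). With loperamide alone its log2 fold change was 0.21 ± 0.13 (adjusted p = 0.248, and 0.018 with the replicate block). It was lower in FoxOi_Loperamide than in FoxOi, by -0.69 ± 0.13 on the log2 scale (adjusted p = 0.0013). Sqstm1 alone made up 33.7 to 38.5% of the summed CPM of the 34 genes in FoxOi_Loperamide, 41.7 to 47.3% in FoxOi, 21.2 to 26.1% in Loperamide and 19.5 to 24.4% in DMSO. Without it the other 33 summed to 2246 to 2356 CPM in FoxOi_Loperamide, 2488 to 2588 in FoxOi, 2712 to 2824 in Loperamide and 2539 to 2651 in DMSO.

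Optn encodes optineurin, a receptor for damaged mitochondria and bacteria (ENSMUSG00000026672, chromosome 2, 5020642 to 5064051). It had 70.8, 62.3 and 68.4 CPM in FoxOi_Loperamide, 62.8, 59.9 and 57.03 CPM in FoxOi, 51.5, 43.4 and 45.7 CPM in Loperamide, and 28.6, 29.1 and 28.5 CPM in DMSO. Every treated library was above every DMSO library, and FoxOi_Loperamide overlapped with FoxOi. Optn rose in all 3 comparisons with DMSO, by 1.22 ± 0.09 with both compounds (adjusted p = 6.15e-08), 1.06 ± 0.09 with FoxOi (adjusted p = 3.58e-07) and 0.70 ± 0.09 with loperamide (adjusted p = 3.77e-05). Nbr1 encodes a receptor that works beside p62 (ENSMUSG00000017119, chromosome 11, 101552149 to 101581951), and it moved the other way. It had 132, 139 and 154 CPM in FoxOi_Loperamide, 154, 179 and 194 CPM in FoxOi, 279, 278 and 291 CPM in Loperamide, and 245, 261 and 299 CPM in DMSO. Both groups with FoxOi were below both groups without it. Nbr1 fell by 0.92 ± 0.10 with both compounds (adjusted p = 4.02e-06) and by 0.61 ± 0.10 with FoxOi (adjusted p = 0.000212), and was at 0.07 ± 0.10 with loperamide (adjusted p = 0.613). Against FoxOi alone it was lower with both compounds by -0.31 ± 0.10 (adjusted p = 0.0349), with overlapping groups, a call lost without FoxOi replicate 2 (adjusted p = 0.102) or 3 (0.141) and without FoxOi_Loperamide replicate 1 (0.124) or 2 (0.101).

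Of the 5 genes of membrane supply, Wipi1, Wipi2 and Atg2a were lower and Atg2b was higher with both compounds. Called were 80% of the 5 with both compounds, 20% with FoxOi and 60% with loperamide, against 45.5%, 40.9% and 31.9% of all genes. Wipi1 binds the lipid made by the class III PI3-kinase (ENSMUSG00000041895, chromosome 11, 109573331 to 109611967). It had 35.6, 32.2 and 40.9 CPM in FoxOi_Loperamide, 255, 282 and 282 CPM in FoxOi, 136, 153 and 182 CPM in Loperamide, and 307, 314 and 394 CPM in DMSO. No groups overlapped, and the libraries with both compounds were far below the rest. Against DMSO, Wipi1 fell by 3.22 ± 0.14 on the log2 scale with both compounds (adjusted p = 5.33e-10) and by 1.11 ± 0.12 with loperamide (adjusted p = 1.21e-05), the 1 member lower with loperamide. With FoxOi alone the value was -0.31 ± 0.12 (adjusted p = 0.055, and 0.000217 with the replicate block).

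Wipi2, its paralog, which recruits the conjugation system (ENSMUSG00000029578, chromosome 5, 142627698 to 142670588), had 88.2, 76.6 and 73.2 CPM in FoxOi_Loperamide, 112, 108 and 96.6 CPM in FoxOi, 137, 135 and 133 CPM in Loperamide, and 128, 118.3 and 104 CPM in DMSO. The libraries with both compounds were below all others, while FoxOi overlapped with DMSO. Wipi2 fell by 0.56 ± 0.10 with both compounds (adjusted p = 0.000281). Of the 3 other genes of this step, Atg2a, a lipid transfer protein, was lower with both compounds (-0.30 ± 0.08, adjusted p = 0.00773, and 0.154 with total counts) and with FoxOi (-0.41 ± 0.08, adjusted p = 0.0012), and higher with loperamide (0.32 ± 0.08, adjusted p = 0.00801). Its paralog Atg2b was higher with both compounds (0.48 ± 0.12, adjusted p = 0.00555) and with loperamide (0.54 ± 0.12, adjusted p = 0.00369). Atg9a, a membrane protein of the vesicles that seed the autophagosome, was not called, at -0.28 ± 0.12 with both compounds (adjusted p = 0.0621, and 0.00363 with the replicate block).

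Among the 5 genes of initiation, 2 fell with FoxOi, alone and with loperamide. The share called was 40% with both compounds, with FoxOi and with loperamide, against 45.5%, 40.9% and 31.9% of all genes. Atg13 encodes the regulatory subunit of the ULK1 complex (ENSMUSG00000027244, chromosome 2, 91674618 to 91710576). It had 30.4, 32.5 and 33.4 CPM in FoxOi_Loperamide, 52.6, 53.3 and 49.1 CPM in FoxOi, 101, 98.3 and 108 CPM in Loperamide, and 98.7, 90.6 and 101 CPM in DMSO. Its libraries with both compounds were lowest, those with FoxOi alone came next, and Loperamide overlapped with DMSO. Atg13 fell by 1.59 ± 0.08 with both compounds (adjusted p = 2.2e-09) and by 0.90 ± 0.08 with FoxOi (adjusted p = 6.12e-07), against 0.08 ± 0.08 with loperamide (adjusted p = 0.467). Ulk1, the kinase of that complex, ranged over 36.6 to 47.0 CPM in FoxOi_Loperamide, 37.4 to 44.0 in FoxOi, 75.0 to 78.0 in Loperamide and 50.4 to 52.8 in DMSO. It was lower with FoxOi (-0.37 ± 0.10, adjusted p = 0.00772) and higher with loperamide (0.57 ± 0.10, adjusted p = 0.000489). Its lower value with both compounds (-0.28 ± 0.10, adjusted p = 0.0339) was lost with total counts (adjusted p = 0.34) and without DMSO replicate 2 (0.0611) or 3 (0.055) or FoxOi_Loperamide replicate 1 (0.167) or 2 (0.0622). Ambra1, a scaffold of initiation, was higher with loperamide (0.21 ± 0.07, adjusted p = 0.0366), a call lost when any of the 3 DMSO or 3 Loperamide libraries was left out (adjusted p 0.06 to 0.116). Ulk2, a second kinase, and Rb1cc1, which encodes the scaffold FIP200, were not called without the block.

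Of the 5 genes of the class III PI3-kinase complexes, Atg14 and Uvrag were higher with both compounds and with loperamide, and Uvrag also with FoxOi. That is 40% of the 5 with both compounds, 20% with FoxOi and 40% with loperamide. Of all genes 45.5%, 40.9% and 31.9% were called in that order. Atg14 directs the complex to initiation (ENSMUSG00000037526, chromosome 14, 47540893 to 47570649). It had 23.9, 26.4 and 24.1 CPM in FoxOi_Loperamide, 17.0, 17.95 and 18.9 CPM in FoxOi, 26.0, 32.6 and 32.4 CPM in Loperamide, and 14.9, 17.7 and 20.03 CPM in DMSO. Both groups with loperamide were above both groups without it. Atg14 rose by 0.50 ± 0.12 with both compounds (adjusted p = 0.00364) and by 0.79 ± 0.12 with loperamide (adjusted p = 0.000191), and was at 0.03 ± 0.12 with FoxOi (adjusted p = 0.849). Uvrag encodes the alternative subunit of the complex (ENSMUSG00000035354, chromosome 7, 98885021 to 99141141). It had 63.7, 66.0 and 61.6 CPM in FoxOi_Loperamide, 55.8, 58.1 and 50.1 CPM in FoxOi, 48.8, 50.8 and 50.9 CPM in Loperamide, and 37.2, 40.0 and 36.7 CPM in DMSO. Every treated library exceeded every DMSO library, and FoxOi overlapped with Loperamide. Uvrag rose by 0.75 ± 0.08 with both compounds (adjusted p = 3.87e-06), 0.53 ± 0.08 with FoxOi (adjusted p = 0.000133) and 0.40 ± 0.08 with loperamide (adjusted p = 0.00191). Becn1, Pik3c3 and Pik3r4, which encode the shared core (Beclin 1, the lipid kinase VPS34 and VPS15), were called in none of the 6 tests without the block.

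Of the 5 ATG8 genes, 2 were higher with both compounds, 1 with FoxOi and 2 with loperamide. These are 40%, 20% and 40% of the 5, against 45.5%, 40.9% and 31.9% of all genes. Gabarapl1 (ENSMUSG00000030161, chromosome 6, 129533160 to 129542346) had 124, 108 and 127 CPM in FoxOi_Loperamide, 134, 114 and 131 CPM in FoxOi, 159, 141 and 153 CPM in Loperamide, and 95.3, 79.3 and 93.5 CPM in DMSO. Each treated library was above each DMSO library, and Loperamide was highest. Gabarapl1 rose by 0.42 ± 0.10 with both compounds (adjusted p = 0.00328), 0.50 ± 0.10 with FoxOi (adjusted p = 0.000993) and 0.76 ± 0.10 with loperamide (adjusted p = 5.11e-05). Map1lc3b encodes LC3B, the ATG8 protein most used as an autophagosome marker (ENSMUSG00000031812, chromosome 8, 121590361 to 121598760). It had 80.5, 76.1 and 69.3 CPM in FoxOi_Loperamide, 69.5, 60.6 and 70.4 CPM in FoxOi, 101, 103 and 93.7 CPM in Loperamide, and 75.2, 62.9 and 57.01 CPM in DMSO. Loperamide stood above all other groups, which overlapped. Map1lc3b rose by 0.61 ± 0.11 with loperamide (adjusted p = 0.000521), and was at 0.21 ± 0.11 with both compounds (adjusted p = 0.119, and 0.0148 with the replicate block) and 0.04 ± 0.11 with FoxOi (adjusted p = 0.8). Gabarap was higher with both compounds (0.27 ± 0.09, adjusted p = 0.0279), and lost that call without DMSO replicate 2 (adjusted p = 0.0669) or 3 (0.152) or FoxOi_Loperamide replicate 1 (0.073) or 3 (0.0575). Map1lc3a and Gabarapl2 were called in none of the 3 comparisons with DMSO without the block. Map1lc3b overlaps Zcchc14 on the other strand (14211 and 14060 counts over the 12 libraries), so its value is uncertain where the counting ignored strand, which the sources used here do not give. Zcchc14 was higher with both compounds (0.48 ± 0.11, adjusted p = 0.00233), with FoxOi (0.52 ± 0.11, adjusted p = 0.00154) and with loperamide (0.47 ± 0.11, adjusted p = 0.00478), and Map1lc3b was called only in the last of these without the block. The overlap of Sqstm1 with Mrnip involves 244382 against 1888 counts. The same limit holds for Atg4d with Kri1 (11441 and 10335 counts) and Atg4b with Thap4 (11828 and 4997). It also holds for Atg9a with Ankzf1 (7092 and 2977) and Atg2b with Gskip (17761 and 3834).

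Without the replicate block, 16.7% of the 6 conjugation genes were called with both compounds, 33.3% with FoxOi and 0% with loperamide. For the 4 ATG4 proteases the share was 0% in each. The shares of all genes were 45.5%, 40.9% and 31.9% in that order. Of 6 conjugation genes, Atg3, the E2-like enzyme of ATG8 proteins, was higher with both compounds (0.32 ± 0.09, adjusted p = 0.0116, and 0.0632 without DMSO replicate 1) and with FoxOi (0.41 ± 0.09, adjusted p = 0.00243). Atg7, the E1-like enzyme, was higher with FoxOi (0.35 ± 0.11, adjusted p = 0.0185), and lost that call without DMSO replicate 3 (log2 fold change 0.23, adjusted p = 0.13) or FoxOi replicate 1 (0.25, adjusted p = 0.128). With loperamide none of the 6 was called, the smallest unadjusted p being 0.0972 for Atg10. Atg4a, Atg4b, Atg4c and Atg4d, which process and release ATG8 proteins, were called in none of the 6 tests without the block. With it Atg4d was higher in FoxOi_Loperamide than in FoxOi (0.16, adjusted p = 0.042). Over the 3 comparisons with DMSO, the 5 members with the smallest changes were Atg5, Atg4b, Atg12, Atg16l1 and Atg4d, whose largest absolute log2 fold changes were 0.04, 0.08, 0.09, 0.10 and 0.14. A p that misses the threshold does not show that these genes were unchanged.

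Epg5 encodes a tether between autophagosome and lysosome (ENSMUSG00000039840, chromosome 18, 77938465 to 78035013). It had 103, 110.0 and 114 CPM in FoxOi_Loperamide, 75.6, 85.0 and 102 CPM in FoxOi, 112, 96.3 and 115 CPM in Loperamide, and 60.3, 65.5 and 80.4 CPM in DMSO. Both groups with loperamide were above DMSO, and FoxOi overlapped with DMSO. Epg5 rose by 0.67 ± 0.12 with both compounds (adjusted p = 0.000462) and by 0.65 ± 0.12 with loperamide (adjusted p = 0.00103). With FoxOi the value was 0.35 ± 0.12 (adjusted p = 0.035), which lost its call without DMSO replicate 1 (log2 fold change 0.22, adjusted p = 0.172) or 2 (0.29, adjusted p = 0.14) or FoxOi replicate 2 (0.37, adjusted p = 0.0621) or 3 (0.23, adjusted p = 0.175).

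**Figure D3:**
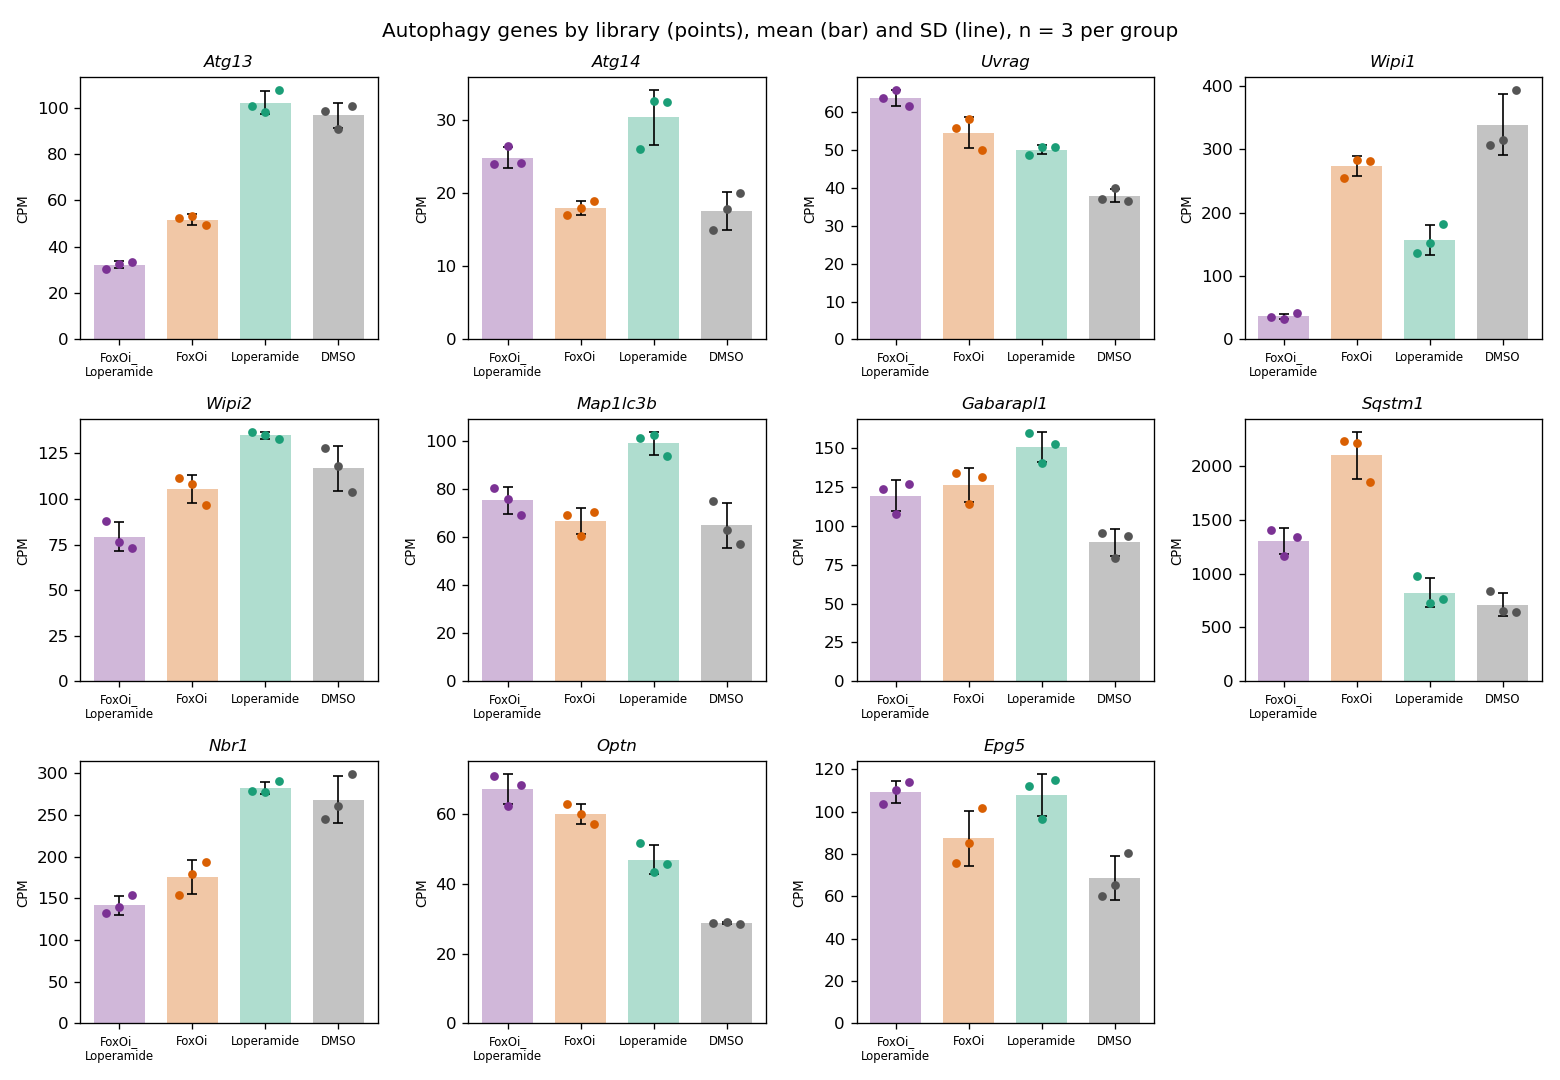
CPM of 11 autophagy genes in each library (points), with the group mean (bar) and SD (line), n = 3 per group, and each vertical axis starting at 0. Wipi1 is lowest with both compounds at 32.2 to 40.9 CPM, Sqstm1 is highest with FoxOi alone at 1847 to 2235 CPM, and Map1lc3b is highest with loperamide alone at 93.7 to 103 CPM.

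The combination was then set against each compound alone. Against FoxOi, 1 member was higher and 5 were lower in FoxOi_Loperamide (17.6% of the members, 26.6% of all genes), with a median of -0.03 (all genes 0.00). The higher member was Atg14 (0.47 ± 0.12, adjusted p = 0.0096), and Wipi1 was lower by -2.91 ± 0.13 (adjusted p = 2.36e-09), Atg13 by -0.69 ± 0.08 (adjusted p = 1.82e-05) and Wipi2 by -0.41 ± 0.10 (adjusted p = 0.00559), beside Sqstm1 and Nbr1. With the replicate block 7 were higher and 8 lower, the added genes being Pik3c3, Uvrag, Atg2b, Atg4d, Optn and Epg5 as higher and Atg9a, Atg7 and Atg12 as lower. That is 44.1% of the members, against 44.6% of all genes with the block. With total counts 5 were higher and 4 lower (26.5% of the members, 28.3% of all genes). Among all genes tested, 11.5% were higher and 15.1% lower in this comparison. Of the members 3 were called at 1.5-fold or more, against 13.7% of all genes.

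Against Loperamide, 5 members were higher and 11 lower in FoxOi_Loperamide (47.1% of the members, 38.9% of all genes), with a median of -0.16 (all genes -0.01). Of all genes 18.4% were higher and 20.5% lower. At 1.5-fold or more 7 members were called, against 21.7% of all genes. With the replicate block 21 members were called (61.8%, against 53.6% of all genes). Higher were Sqstm1 (0.67 ± 0.13, adjusted p = 0.00109), Optn (0.52 ± 0.09, adjusted p = 0.000298), Atg3 (0.40 ± 0.09, adjusted p = 0.00327), Uvrag (0.35 ± 0.08, adjusted p = 0.00381) and Gabarap (0.29 ± 0.09, adjusted p = 0.0249). The falls included Wipi1 (-2.11 ± 0.13, adjusted p = 3.27e-08), Atg13 (-1.67 ± 0.08, adjusted p = 4.84e-09), Nbr1 (-0.99 ± 0.10, adjusted p = 3.56e-06), Ulk1 (-0.85 ± 0.10, adjusted p = 1.19e-05), Wipi2 (-0.76 ± 0.10, adjusted p = 2.51e-05) and Atg2a (-0.63 ± 0.08, adjusted p = 3.66e-05). Map1lc3b (-0.40 ± 0.11, adjusted p = 0.00792) was lower too. The other calls as lower were Atg10, Gabarapl1, Gabarapl2 and Ambra1, at -0.44 to -0.24 on the log2 scale, and each lost its call when any 1 of several libraries was left out. Those libraries were Loperamide replicate 1 and FoxOi_Loperamide replicate 2 for Gabarapl1 (adjusted p 0.0574 and 0.0762), for Gabarapl2 (0.0618 and 0.0521) and for Ambra1 (0.0515 and 0.0534), and FoxOi_Loperamide replicates 1 and 3 and Loperamide replicates 1 and 2 for Atg10 (0.0899 to 0.196). Gabarap lost its call without FoxOi_Loperamide replicate 1 or 3 or Loperamide replicate 2 or 3 (adjusted p 0.0507 to 0.0893).

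The effect of loperamide was tested for a difference between cells with and without FoxOi. This interaction, the log2 effect with FoxOi minus the effect without, was called for 7 members, all of them negative, which is 20.6% of the 34 against 9.48% of all genes (5.82% of all genes were negative and 3.66% positive). At 1.5-fold or more 5 members were called, against 7.55% of all genes. With the replicate block 13 members were called, which is 38.2% of the 34 against 25.8% of all genes. The median over the 34 was -0.27 (all genes -0.02), and 4 of the 34 lay above 0. The interaction subtracts the values of Loperamide against DMSO, so its signs are not independent of the signs in that comparison. Wipi1 had -1.80 ± 0.18 (adjusted p = 2.58e-05), from a fall by 2.91 with FoxOi and by 1.11 without it. Sqstm1 had -0.90 ± 0.19 (adjusted p = 0.0063), Gabarapl1 -0.84 ± 0.14 (adjusted p = 0.00147), Atg13 -0.77 ± 0.11 (adjusted p = 0.000554) and Wipi2 -0.62 ± 0.14 (adjusted p = 0.00929). Optn had -0.54 ± 0.12 (adjusted p = 0.012), lost without DMSO replicate 2 (adjusted p = 0.054) or FoxOi replicate 1 (0.0521). Ulk1 had -0.48 ± 0.14 (adjusted p = 0.0444), lost without each library in turn other than FoxOi_Loperamide replicate 3 (adjusted p at least 0.054). Loperamide raised Gabarapl1 in cells without FoxOi (0.76), whereas its log2 fold change in cells with FoxOi was -0.08 ± 0.10 (adjusted p = 0.589).

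**Figure D4:**
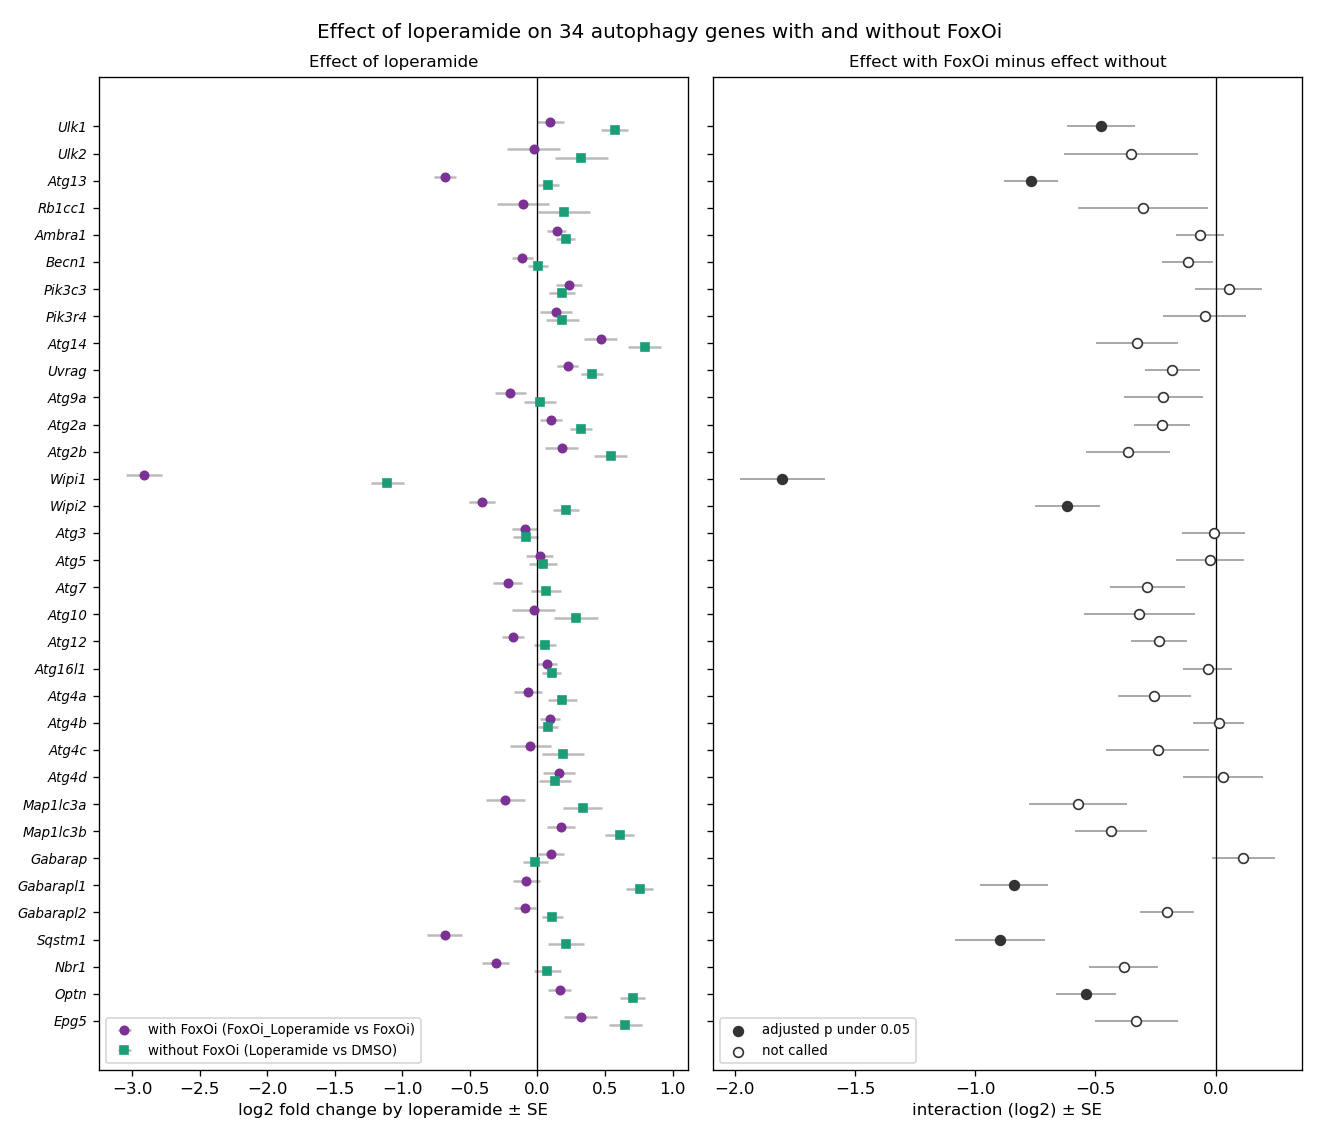
Left, log2 fold change by loperamide with FoxOi (FoxOi_Loperamide vs FoxOi) and without it (Loperamide vs DMSO). Right, their difference, with standard errors as lines and filled points where the adjusted p is under 0.05; the 7 filled points lie between -1.80 for Wipi1 and -0.48 for Ulk1.

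Without the block, 16 of the 34 members were called in none of the 3 comparisons with DMSO, 5 in 1, 7 in 2 and 6 in all 3. These are 47.1%, 14.7%, 20.6% and 17.6% of the members, against 34.9%, 25.2%, 26.7% and 13.3% of all genes, and the comparisons share the DMSO libraries. With the block 20.6% of the members and 19.3% of all genes were called in none of the 3, and 29.4% and 25% in all 3. Called in all 3 without the block were Ulk1, Uvrag, Atg2a, Gabarapl1, Optn and Epg5. Of these 6, Uvrag, Gabarapl1, Optn and Epg5 were higher in each, and Ulk1 and Atg2a were lower in the groups with FoxOi and higher in Loperamide. Without the block 14 members (41.2%, against 30.5% of all genes) were called in none of the 6 tests. With the block 4 were (11.8%, against 15.5% of all genes), namely Atg5, Atg16l1, Atg4a and Atg4b.

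Other genes of the pathway gave the setting. Of the family of the inhibited factor, Foxo1 had 40.9 ± 3.33 CPM in FoxOi_Loperamide, 25.6 ± 1.59 in FoxOi, 46.4 ± 3.34 in Loperamide and 35.9 ± 4.51 in DMSO (SD, n = 3 each), lower with FoxOi (-0.48 ± 0.11, adjusted p = 0.0022) and higher with loperamide (0.37 ± 0.11, adjusted p = 0.0157). A compound that inhibits a protein need not change its mRNA. Foxo3 was higher with both compounds (0.53 ± 0.09, adjusted p = 0.000235) and with loperamide (0.81 ± 0.09, adjusted p = 1.17e-05). Of the 4 MiT/TFE factors, which drive lysosomal and autophagy genes, Tfec had 0 counts and was not tested. Mitf averaged 2.61 ± 0.189 CPM in FoxOi_Loperamide, 6.97 ± 0.914 in FoxOi, 4.21 ± 0.0326 in Loperamide and 4.95 ± 0.486 in DMSO. It was lower with both compounds (-0.92 ± 0.16, adjusted p = 0.00029) and higher with FoxOi (0.50 ± 0.14, adjusted p = 0.0127), the second call being lost without DMSO replicate 1 (adjusted p = 0.0608) or 2 (0.0735) or FoxOi replicate 2 (0.0668). Tfeb was higher with loperamide (0.62 ± 0.16, adjusted p = 0.00905), and stood at 0.40 ± 0.16 with both compounds (adjusted p = 0.0542, and 0.00307 with the replicate block) and -0.31 ± 0.16 with FoxOi (adjusted p = 0.146, and 0.0262 with the block). Tfe3 was called in none of the 3 comparisons with DMSO, at -0.17, -0.03 and 0.14 on the log2 scale with both compounds, FoxOi and loperamide.

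Of 15 other core autophagy factors, 4 were higher and 2 lower with both compounds, 4 and 3 with FoxOi, and 7 and 0 with loperamide. The calls are 40%, 46.7% and 46.7% of the 15, against 45.5%, 40.9% and 31.9% of all genes. Trp53inp1, a stress-induced protein that binds ATG8, was higher in each, by 2.74 ± 0.27 (adjusted p = 7.43e-06), 2.34 ± 0.27 (adjusted p = 3.09e-05) and 1.67 ± 0.26 (adjusted p = 0.000572). Tecpr1, which also acts in fusion, was lower with both compounds (-0.97 ± 0.09, adjusted p = 8.56e-07) and with FoxOi (-1.19 ± 0.09, adjusted p = 1.64e-07). Zfyve1, a marker of the sites where autophagosomes form, was higher with both compounds (0.50 ± 0.08, adjusted p = 0.00014) and with loperamide (0.69 ± 0.08, adjusted p = 1.8e-05), Wdr45, a WIPI protein, with loperamide (0.78 ± 0.14, adjusted p = 0.000574), and Atg9b with FoxOi (0.65 ± 0.23, adjusted p = 0.032). Atg9b lost its call, and the count of higher genes with FoxOi fell to 2, without DMSO replicate 2 or 3 or FoxOi replicate 1 or 3.

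Of 18 other selective autophagy receptors and their regulators, 7 were higher and 7 lower with both compounds, 6 and 9 with FoxOi, and 8 and 0 with loperamide (10 and 2 with the replicate block). The calls without the block are 77.8%, 83.3% and 44.4% of the 18, against 45.5%, 40.9% and 31.9% of all genes. With the block 48.7% of all genes were called with loperamide. Stbd1, a receptor for glycogen, was higher with both compounds (2.48 ± 0.10, adjusted p = 5.07e-10) and with FoxOi (2.68 ± 0.10, adjusted p = 2.8e-10), and so was Retreg1, a receptor for the endoplasmic reticulum (2.83-fold, adjusted p = 2.42e-06, with both compounds and 2.37 ± 0.16 on the log2 scale, adjusted p = 4.69e-08, with FoxOi). Ccpg1, another receptor for the endoplasmic reticulum, was lower with both compounds (-1.58 ± 0.19, adjusted p = 8.22e-06), and Pink1, a kinase that marks damaged mitochondria, was lower with FoxOi (-1.29 ± 0.12, adjusted p = 1.45e-06). With loperamide, Calcoco1 and Tex264, which also act on the endoplasmic reticulum, were higher by 0.95 ± 0.12 (adjusted p = 2.78e-05) and 0.65 ± 0.10 (adjusted p = 0.000197), and Bnip3l, a mitochondrial receptor, by 0.65 ± 0.16 (adjusted p = 0.00554). Of 14 genes of fusion with the lysosome, 10 were higher and 2 lower with both compounds, 5 and 2 with FoxOi (10 and 2 with the replicate block, 11 and 2 with total counts), and 10 and 1 with loperamide (5 and 1 without DMSO replicate 2). In the main fit the calls are 85.7%, 50% and 78.6% of the 14, against 45.5%, 40.9% and 31.9% of all genes. In the 3 settings in brackets 56.1%, 43% and 23.8% of all genes were called. Among the 14 fusion genes Grn, the lysosomal protein progranulin, was higher in each comparison, by 1.29 ± 0.10 (adjusted p = 9.17e-08), 0.96 ± 0.10 (adjusted p = 2.54e-06) and 0.68 ± 0.10 (adjusted p = 0.000102). Vps18 of the HOPS tether was higher with both compounds (0.71 ± 0.09, adjusted p = 2.37e-05) and with FoxOi (0.64 ± 0.09, adjusted p = 8.23e-05). With loperamide the adaptor Plekhm1 was higher (0.58 ± 0.09, adjusted p = 0.000322) and the SNARE Ykt6 lower (-0.45 ± 0.07, adjusted p = 0.000168).

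Upstream, 28 genes of mTORC1, the kinase complex that restrains autophagy, and its inputs were counted. With both compounds 14 were higher and 5 lower (67.9% of the 28, 45.5% of all genes). With FoxOi 13 were higher and 8 lower (75% and 40.9%). With loperamide 13 were higher and 2 lower (53.6% and 31.9%), or 17 and 5 with the replicate block, which called 48.7% of all genes. Rragd, a RAG GTPase that brings mTORC1 to the lysosome, was higher in each, by 2.75 ± 0.13 (adjusted p = 1.12e-09), 1.92 ± 0.12 (adjusted p = 2.79e-08) and 1.66 ± 0.12 (adjusted p = 2.65e-07). Castor2, related to an arginine sensor, was lower with both compounds (-1.75 ± 0.09, adjusted p = 2.17e-09) and with FoxOi (-2.39 ± 0.09, adjusted p = 2.8e-10), and Sesn3, a sestrin, with FoxOi (-1.46 ± 0.25, adjusted p = 0.000694). Ddit4, an inhibitor of mTORC1, was higher with both compounds (2.02 ± 0.19, adjusted p = 2.37e-06) and with loperamide (1.24 ± 0.19, adjusted p = 0.000308), as was Flcn, folliculin, with loperamide (1.40 ± 0.09, adjusted p = 8.1e-08). Of 7 genes for AMPK subunits and LKB1, 6 were tested, and 1 was higher and 2 lower with both compounds, 1 and 3 with FoxOi, and 1 and 1 with loperamide. The calls are 50%, 66.7% and 33.3% of the 6, against 45.5%, 40.9% and 31.9% of all genes. Prkab2 was higher with both compounds (1.01 ± 0.11, adjusted p = 4.97e-06), Prkag2 was lower with FoxOi (-0.88 ± 0.09, adjusted p = 2.96e-06), and Prkag1 was lower with both compounds (-0.43 ± 0.08, adjusted p = 0.000401) and with loperamide (-0.45 ± 0.08, adjusted p = 0.000513). Prkab2 with FoxOi (0.39 ± 0.11, adjusted p = 0.0137, and 0.0859 without DMSO replicate 1), Stk11 with both compounds (-0.30 ± 0.11, adjusted p = 0.0348) and with FoxOi (-0.29 ± 0.11, adjusted p = 0.0453), and Prkag2 with loperamide (0.27 ± 0.09, adjusted p = 0.0318) were called, and the last 3 were lost with the fit limited to the groups compared (adjusted p = 0.107, 0.0872 and 0.0939).

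Members and related genes were also counted by lists of genes reported as targets elsewhere. Of all genes 45.5% were called with both compounds, 40.9% with FoxOi and 31.9% with loperamide. The median log2 fold changes of all genes were 0.01, 0.01 and 0.02 in that order. Of 10 FoxO targets known from mouse muscle and liver, among them Map1lc3b, Gabarapl1, Atg14 and Bnip3l, 3 were higher and 1 lower with both compounds, 2 and 1 with FoxOi, and 5 and 0 with loperamide, with medians of 0.13, 0.06 and 0.47. The calls are 40%, 30% and 50% of this list. Of 7 TFEB targets known from human cells, among them Sqstm1, Uvrag, Wipi1 and Vps18, 4 were higher and 1 lower with both compounds, 4 and 0 with FoxOi, and 4 and 1 with loperamide, with medians of 0.36, 0.53 and 0.35. The calls are 71.4%, 57.1% and 71.4% of this list. Of 12 genes that depend on ATF4 or CHOP in mouse fibroblasts, among them Sqstm1, Nbr1, Atg3 and Gabarap, 3 were higher and 1 lower with both compounds, 3 and 1 with FoxOi, and 1 and 0 with loperamide, with medians of 0.06, 0.06 and 0.07. The calls are 33.3%, 33.3% and 8.33% of this list. With total counts the numbers of higher genes with both compounds were 6, 5 and 7, in a setting that called 49.8% of all genes, 66.3% of them as higher. With the replicate block, which called 56.1% of all genes with FoxOi and 48.7% with loperamide, 4 of the FoxO targets and 5 of the ATF4 or CHOP genes were higher with FoxOi, and 3 of the ATF4 or CHOP genes with loperamide. The lists share members, and counts by list say nothing of which factor acted.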

How the data were processed

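Per the labels' protocols, stranded mRNA libraries were made from DNase-treated RNA and sequenced from 1 end, 50 bases a read. Per the submitters' processing notes, STAR 2.7.5a, Picard 2.19.2 and DESeq2 were used with GRCm38 and mm10. The tool and the strand setting of the counting step, and its treatment of reads shared by similar genes, were not given in these sources. The authors deposited raw counts per gene and, in a table of their own, FPKM. The deposited FPKM values equal counts over a constant for each gene and a library factor within 0.354% of DESeq2 size factors (11651 genes checked). Whether that constant is the gene length was not checked. Of all genes, 98.8% have the location that GENCODE M21 gives, as do all 34 members.

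The test was edgeR 4.0.16 (R 4.3.3) on the deposited counts. Low genes were removed by filterByExpr (minimum count 10, minimum total count 15), libraries were scaled by TMM, and a robust quasi-likelihood model with the group as its only term was fitted to all 12 libraries. Adjusted p-values are Benjamini-Hochberg over all 16808 genes tested. The standard error (SE) of a log2 fold change is its size over the root of its F value. CPM are counts relative to the TMM-scaled library size, given as mean ± SD or for replicates 1, 2 and 3 in that order. Chi-square over its degrees of freedom was 5.34 to 33.5 between libraries of a group, so none was a copy of another. The fit was checked on simulated data. The alternatives were DESeq2 size factors, total counts, no low-count filter, DESeq2 1.42.0 (Wald test), limma 3.58.1 on log2(FPKM + 1), the groups compared alone, each library left out, and the replicate number as a block.

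The numbers come from the sample titles, and libraries with the same number share a code. Deviations from the group means correlated at 0.0915 to 0.507 in 18 same-numbered pairs and at -0.469 to 0.105 in 36 others. Each of the 12 libraries correlated best with its own number in every other group. The numbers therefore count as paired in all comparisons and in the interaction. The weakest same-numbered pair, at 0.0915, was replicate 2 of FoxOi_Loperamide and Loperamide. The main fit has the group as its only term and leaves the pairing out, while the block includes it.

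Values in every library are given for members called and changed at least 1.5-fold against DMSO or called with at least that size in the interaction (11 of 34), and others by range and call. From each further list the 3 called genes with the largest changes per comparison with DMSO are named. Members and lists were chosen with earlier results of these data known. Marker lists serve to check the cell line. Fibroblast markers (5 genes) summed to 1.13 to 1.52 CPM in FoxOi_Loperamide, 1.43 to 2.27 in FoxOi, 3.04 to 4.53 in Loperamide and 2.57 to 3.48 in DMSO, and acinar and ductal markers (5 genes) to at most 0.523 CPM in any library. Promoters are from RefSeq (GRCm38.p6). Figures were drawn with matplotlib 3.10.9.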

Additional observations from a re-analysis of the deposited data

Results flagged for a closer look

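The effect of loperamide differed between cells with and without FoxOi in 7 of the 34 genes (20.6%, against 9.48% of all genes), by the interaction test of edgeR with Benjamini-Hochberg adjustment over all genes. As the log2 effect with FoxOi minus the effect without, the values were -1.80 for Wipi1, -0.90 for Sqstm1, -0.84 for Gabarapl1, -0.77 for Atg13 and -0.62 for Wipi2. The values were -0.54 for Optn and -0.48 for Ulk1, with calls that held less often: that of Optn was lost without DMSO replicate 2 or FoxOi replicate 1, and that of Ulk1 without any 1 of 11 of the 12 libraries. Sqstm1 and Atg13 were lower in FoxOi_Loperamide than in FoxOi (-0.69 each), while their log2 fold changes in Loperamide against DMSO were 0.21 and 0.08. The causes of these differences were not tested.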

How the results depend on the processing

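The direction of every called value held under all alternatives run. A block for the replicate number moved the counts of called members for FoxOi against DMSO (12 higher, 7 lower), for Loperamide against DMSO (17 higher), for FoxOi_Loperamide against FoxOi (7 higher, 8 lower) and for the interaction (13 lower), all calls made without the block being kept. The block also called more of all genes, at 56.1%, 48.7% and 44.6% in those comparisons and 25.8% in the interaction, where 38.2% of the members were called. FoxOi_Loperamide against Loperamide gave 5 higher and 16 lower with the block (61.8% of the members, 53.6% of all genes), and the interaction 0 higher and 13 lower. Same-numbered libraries of FoxOi_Loperamide and Loperamide correlated at 0.328, 0.0915 and 0.341, and each of the 12 libraries correlated best with its own number. With total counts, 11 members were higher with FoxOi and 14 with both compounds against DMSO, and 5 in FoxOi_Loperamide against FoxOi. That setting called 43%, 49.8% and 28.3% of all genes in the same order. In FoxOi_Loperamide against FoxOi, whose count was 1, no low-count filter gave 2, the DESeq2 Wald test 3 and the groups compared alone 2. Those settings called 15.4%, 27.2% and 26.4% of all genes there. Total counts moved the share of higher genes among all called genes from 49.1 to 66.3% with both compounds, from 50.5 to 63.2% with FoxOi, from 50.5 to 66.1% with loperamide and from 43.1 to 54.3% in FoxOi_Loperamide against FoxOi. Leaving out 1 library at a time gave 8 to 9 higher and 5 to 6 lower with both compounds, 6 to 7 and 4 to 5 with FoxOi, 9 to 10 and 1 with loperamide, 1 to 2 and 4 to 5 for FoxOi_Loperamide against FoxOi (2 without FoxOi replicate 3), 4 to 5 and 8 to 11 against Loperamide, and 0 and 5 to 8 for the interaction. The fits with 1 library left out called 37.9 to 42.6% of all genes with both compounds, 33 to 39.3% with FoxOi and 23.8 to 31.2% with loperamide. For FoxOi_Loperamide they called 19.3 to 22.9% against FoxOi and 32 to 33.7% against Loperamide, and 6.37 to 11% in the interaction. The interaction rests on the spread of 4 groups of 3, and 5 of its 7 calls (not those of Optn and Ulk1) were kept in every alternative run. The causes of these shifts were not tested.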
